A study of Arabidopsis thaliana with 12 samples.

Results

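The genes described here were higher in leaves of the ape2 line than in leaves of the accession Ws-2 in both conditions of the study, while their signal, averaged over the genotypes, changed little between the conditions. They were chosen from the measured values. A non-control probe set was taken when its mean signal over the 12 arrays was 50 or more, when its group means of log2(signal + 10) were at least 0.5 higher in ape2 in condition H and in condition L, and when H minus L, averaged over the genotypes, lay between -0.2 and 0.2. Of 22746 non-control probe sets, 9739 had a mean signal of 50 or more and 105 met the whole rule. AKINBETA1 and 3 plastid-encoded probe sets were left out by name, which leaves 101 members, or 1.04% of the 9739. In the platform annotation 39 of them have 1 gene named, 3 have several and 59 have none.

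Each member was measured by single-colour arrays on total RNA of unshaded mature rosette leaves at developmental stage 3.7. The 4 groups of 3 arrays were ape2 H, ape2 L, Ws-2 H and Ws-2 L, where Ws-2 is a wild-type accession and ape2 a line made in it by insertion of T-DNA. H and L are the letters of the sample titles, which do not say what they stand for. The line ape2 carries a mutated gene for the translocator of the chloroplast envelope called TPT, and the labels give no other treatment.

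TPT sits in the inner chloroplast envelope and exchanges triose phosphates made by photosynthesis for phosphate from the cytosol. Leaves that lack it are known to keep more carbon as starch and to draw more on the products of starch breakdown, so sugars reach the cytosol by another route. Many leaf transcripts are known to respond to sugar, to energy status and to light.

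Medians of signal ran from 36.2 to 40.1 over the 12 arrays. The 3' signal over the 5' signal of a control transcript, a sign of RNA integrity, ran for GAPDH from 1.69 to 2.09 in ape2 and from 1.64 to 2.29 in Ws-2, and for actin from 3.2 to 4.49 in ape2 and from 3.3 to 4.61 in Ws-2, with overlapping ranges. Its part in the members' values was not tested. RCA, the Rubisco activase of leaf mesophyll, averaged 3993 ± 241 in ape2 H, against 4109 ± 474 in Ws-2 H, and 3834 ± 279 in ape2 L, against 4326 ± 447 in Ws-2 L (SD, n = 3). Of 20 markers of leaf cells and other cells 5 have a probe set named here, and limma called 0 of these 5 between the genotypes, with 0 of them at an unadjusted p under 0.05. Group means of EXPA7 of root hairs ran from 18.7 to 21.1, close to background, those of FMA of guard cells from 43.6 to 55.2 and those of AUR1 of dividing cells from 50.6 to 54.5. In whole leaves, fewer cells of a type and less RNA per cell cannot be told apart. TPT has no probe set with its name here, and the genotype labels were not checked against its level.

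On the log2(signal + 10) scale the members' genotype difference had a median of 0.74 in condition H, from 0.51 to 2.47, and a median of 0.72 in condition L, from 0.50 to 1.80. Over all 9739 probe sets of sufficient signal the medians were -0.01 in H and -0.01 in L. The mean difference over both conditions was 1 or more for 12 members and under 0.75 for 52. The median member had a mean signal of 138, against 128 over the 9739, and the brightest of them, 265352_at, reached 832. All 3 ape2 arrays lay above all 3 Ws-2 arrays for 95 members in condition H and for 94 in condition L. Such separation was found for 15.6% and 14.6% of the 9739 probe sets. For 88 members the 6 ape2 arrays lay above all 6 Ws-2 arrays, against 5.0% of the 9739. In a linear model over all 12 arrays, fitted with limma to 16095 probe sets, 90 members were called higher in ape2 in H and 87 in L at an adjusted p under 0.05, while 4.96% and 5.03% of all probe sets were called higher. These counts follow from the way the members were chosen and are given as a description.

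**Figure D1:**
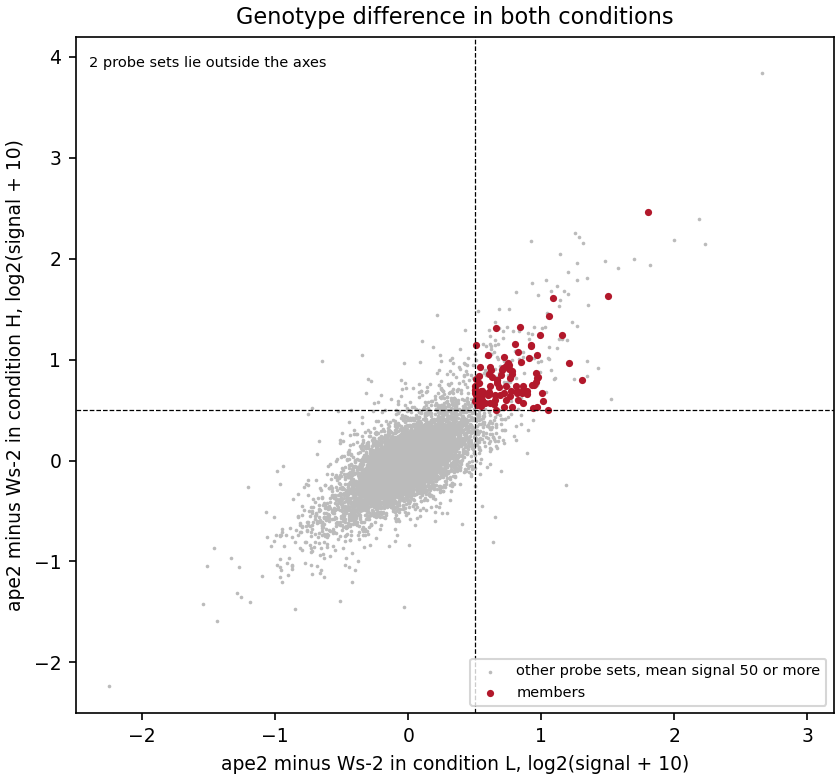
Each point is a probe set with a mean signal of 50 or more, placed by its ape2 minus Ws-2 difference in condition L (x axis) and in condition H (y axis), both in log2(signal + 10). The 101 members (red) lie above 0.5 on both axes (dashed lines), and 2 other probe sets lie outside the axes.

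Just inside the limit of 0.5 in condition L were AT3G52060 at 0.50 and AT4G33660 at 0.51, and just outside it AT5G55450 at 0.50 (0.4997 before rounding) and AT3G29240 at 0.48. For condition H, AT4G31210 at 0.52 and AT1G63660 at 0.54 were just inside, and AT2G15000 at 0.49 and AT1G05210 at 0.47 just outside. For the mean H minus L, AT1G27290 at -0.20 and AT1G74440 at -0.19 were inside, while AT2G39210 and AT4G01330, both at -0.22, were outside. At the lower limit of mean signal, AT2G22420 at 50.7 and AT1G33260 at 57.1 were taken, and AT4G01700 at 49.8 and AT5G25440 at 49.8 were not.

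Named members are ordered here by the kind of protein they encode, an order made after the values were seen and tested for no enrichment, beginning with transport, lipid and metal-binding proteins. AT5G14120 encodes a transporter-like protein of the major facilitator superfamily. Its signals were 563, 515 and 539 in ape2 H, against 239, 272 and 303 in Ws-2 H, and 557, 510.4 and 522 in ape2 L, against 244, 249 and 182 in Ws-2 L. All 6 ape2 arrays were above 510 and all 6 Ws-2 arrays below 304. The genotype difference was 0.97 ± 0.11 in H and 1.21 ± 0.11 in L (SE), a fold of 2.13 over both conditions on the offset scale. AT3G13062, of the START-domain family that binds lipids, gave 197, 232 and 230.3 in ape2 H, against 87.8, 70.5 and 67.3 in Ws-2 H, and 189.5, 221 and 183 in ape2 L, against 97.7, 88.6 and 83.1 in Ws-2 L. The lowest ape2 array stood at 183 and the highest Ws-2 array at 97.7, and the differences were 1.43 ± 0.11 in H and 1.06 ± 0.11 in L. AT5G18630, a lipase-like hydrolase, gave 137, 185 and 131 in ape2 H, against 54, 52.5 and 55.1 in Ws-2 H, and 118, 121 and 122 in ape2 L, against 71.7, 83.2 and 63.9 in Ws-2 L. Its ape2 H 2 array was the highest, the groups did not overlap, and the differences were 1.32 ± 0.12 in H and 0.66 ± 0.12 in L. AT4G19860, a phospholipase of the lecithin:cholesterol acyltransferase family, gave 308, 318 and 308 in ape2 H, against 145, 128 and 132 in Ws-2 H, and 279, 306 and 245 in ape2 L, against 160.4, 149.9 and 151 in Ws-2 L. Both ape2 groups were clear of both Ws-2 groups, with differences of 1.15 ± 0.09 in H and 0.80 ± 0.09 in L. AT2G36950, a protein with a heavy metal-associated domain, gave 119.5, 93.2 and 113 in ape2 H, against 80.2, 82.7 and 47.6 in Ws-2 H, and 121, 115 and 104 in ape2 L, against 56.6, 49.9 and 47 in Ws-2 L. In H its lowest ape2 array was 93.2 and its highest Ws-2 array 82.7, a narrower gap than in L, and the differences were 0.59 ± 0.15 in H and 1.01 ± 0.15 in L.

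**Figure D2:**
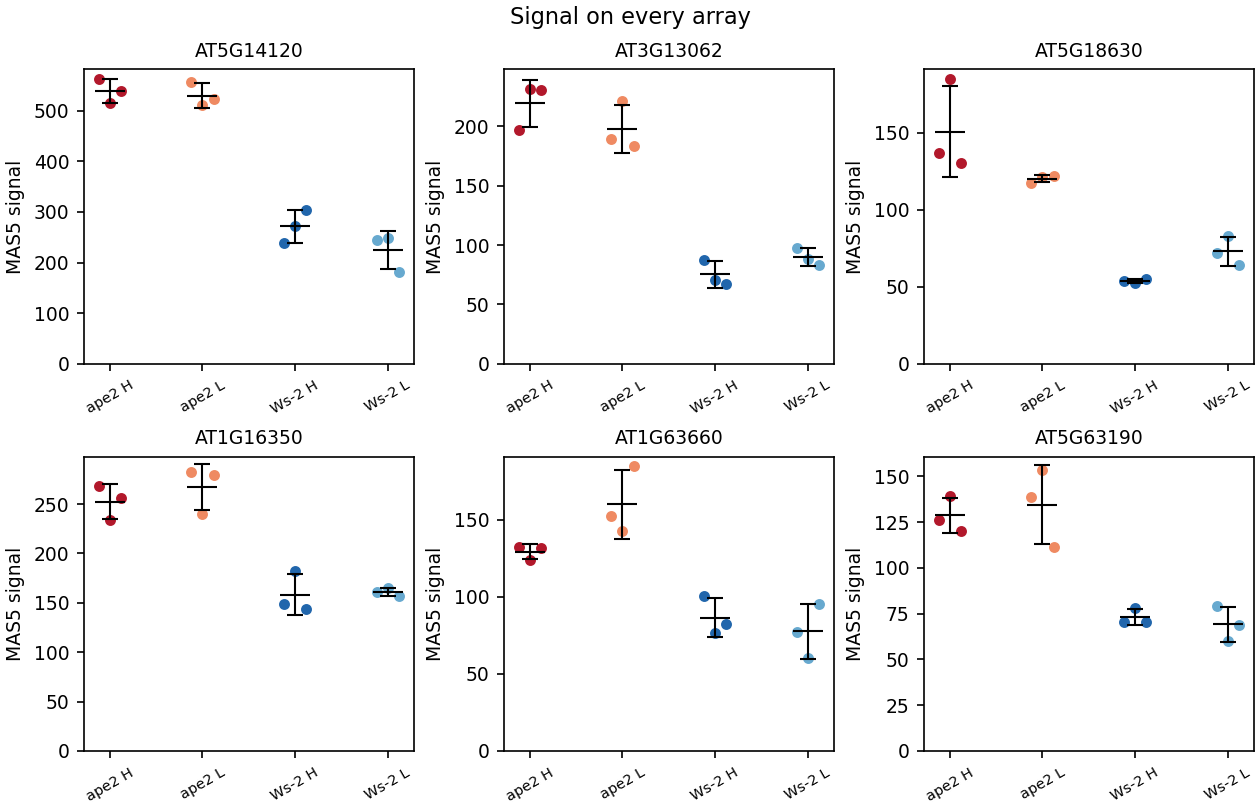
MAS5 signal (y axis, from 0) on every array for AT5G14120, AT3G13062, AT5G18630, AT1G16350, AT1G63660 and AT5G63190. Points are arrays, bars are the mean and SD of 3 arrays, and in each panel all ape2 arrays lie above all Ws-2 arrays.

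For the steps that lead from IMP to GMP in guanine nucleotide synthesis, each has a member. AT1G16350 encodes an IMP dehydrogenase, which makes xanthosine monophosphate, and AT1G63660 a GMP synthase, which turns that product into GMP. AT1G16350 gave 268, 234 and 256 in ape2 H, against 149, 183 and 144 in Ws-2 H, and 282, 240.3 and 279 in ape2 L, against 161, 165 and 157 in Ws-2 L, with no overlap and differences of 0.65 ± 0.10 in H and 0.69 ± 0.10 in L. AT1G63660 gave 132, 124 and 132 in ape2 H, against 101, 76.3 and 82.6 in Ws-2 H, and 152, 142 and 185 in ape2 L, against 77.2, 60.1 and 95.6 in Ws-2 L. Ws-2 H 1, at 101, came closest to the ape2 arrays, whose lowest was 124, and the differences were 0.54 ± 0.14 in H and 0.97 ± 0.14 in L. For comparison, a list of 16 genes of purine synthesis was drawn up after these members were seen, and 5 of the 16 have a probe set named here. The other 3 were not called in either condition, and limma called 2 of the 5, both members, in each. Those 2 calls follow largely from the way the members were chosen. Of all probe sets 4.96% were called higher in H and 5.03% in L. AT1G79470, the other IMP dehydrogenase gene, was dim, at 23.9 ± 14.1 in ape2 H, against 20.1 ± 11 in Ws-2 H, and 37.1 ± 14.4 in ape2 L, against 27.1 ± 14.6 in Ws-2 L (SD, n = 3), with differences of 0.14 ± 0.43 (adjusted p = 0.9) and 0.39 ± 0.43 (adjusted p = 0.658) by limma. PUR9 (AT2G35040), of the shared steps before the branch to GMP, was at -0.06 ± 0.10 (adjusted p = 0.82) in H and 0.28 ± 0.10 (adjusted p = 0.119) in L by limma. PUR3 (AT1G31220), of an earlier step, was at 0.01 ± 0.12 (adjusted p = 0.968) and 0.16 ± 0.12 (adjusted p = 0.466) by the same test.

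Members related to ubiquitin and to protein folding come next. AT3G47160, a RING-type protein of the kind that includes ubiquitin ligases, gave 96.8, 117 and 106 in ape2 H, against 41.5, 35.9 and 39.4 in Ws-2 H, and 100.2, 120.3 and 104 in ape2 L, against 55.6, 45 and 48 in Ws-2 L. Its ape2 arrays all exceeded 96 and its Ws-2 arrays all stayed under 56, with differences of 1.25 ± 0.11 in H and 0.99 ± 0.11 in L. UBC19, a ubiquitin-conjugating enzyme, gave 283, 329.5 and 323 in ape2 H, against 155, 149 and 175 in Ws-2 H, and 278, 226 and 258 in ape2 L, against 163, 152 and 169.6 in Ws-2 L. In L its lowest ape2 array, 226, was above the highest Ws-2 array, 169.6, and the differences were 0.92 ± 0.09 in H and 0.62 ± 0.09 in L. AT3G23880, an F-box protein, a class that selects targets for ubiquitination, gave 140.3, 134 and 146 in ape2 H, against 66.1, 60.5 and 61.7 in Ws-2 H, and 127, 120.1 and 129.9 in ape2 L, against 83, 76.1 and 79.2 in Ws-2 L. Replicates lay close together, the groups did not overlap, and the differences were 1.05 ± 0.08 in H and 0.60 ± 0.08 in L. Fes1B, related to a factor that exchanges nucleotides on HSP70 chaperones, gave 93.7, 89.5 and 87.9 in ape2 H, against 46.9, 36 and 36.9 in Ws-2 H, and 95.9, 72.2 and 70.5 in ape2 L, against 41.4, 36.4 and 34.4 in Ws-2 L. Its ape2 L 1 array was the highest, all ape2 arrays were above 70, and the differences were 1.01 ± 0.12 in H and 0.91 ± 0.12 in L. The related Fes1A (AT3G09350) was at -0.30 ± 0.13 (adjusted p = 0.172) in H and -0.06 ± 0.13 (adjusted p = 0.834) in L by limma, and Fes1C (AT5G02150) at 0.40 ± 0.15 (adjusted p = 0.12) and 0.43 ± 0.15 (adjusted p = 0.0979).

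AT5G63190 encodes an MA3-domain protein (MRF1) of a family that binds translation initiation factors and is known to be induced by darkness and starvation. It gave 126, 139.5 and 120.4 in ape2 H, against 70.5, 78.2 and 70.7 in Ws-2 H, and 139, 154 and 112 in ape2 L, against 79.1, 60 and 68.6 in Ws-2 L. The lowest ape2 array was 112 and the highest Ws-2 array 79.1, with differences of 0.74 ± 0.12 in H and 0.86 ± 0.12 in L. MRF2 (AT1G22730), the other gene of that family with a named probe set, averaged 79.8 ± 4.46 in ape2 H, against 119.9 ± 12.7 in Ws-2 H, and 87.7 ± 17.5 in ape2 L, against 105 ± 6.71 in Ws-2 L (SD, n = 3). By limma it was lower in ape2 than in Ws-2 in H, at -0.53 ± 0.12 (adjusted p = 0.00998), and was not called in L, at -0.25 ± 0.12 (adjusted p = 0.241). The Fes1 and MRF families were looked up after the members were seen.

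The 4 members described as oxidoreductases had mean differences from 0.62 to 0.89. AT3G09580, an FAD-dependent oxidoreductase, averaged 200.5 ± 14 in ape2 H, against 111 ± 21.3 in Ws-2 H, and 197 ± 12.2 in ape2 L, against 95.7 ± 7.28 in Ws-2 L (SD, n = 3). AT1G03400, a 2-oxoglutarate-dependent oxygenase, averaged 262 ± 20.8 in ape2 H, against 140.1 ± 13.7 in Ws-2 H, and 276 ± 15 in ape2 L, against 156 ± 14.6 in Ws-2 L. AT2G29310, a reductase of the tropinone reductase type, gave 292, 264 and 305 in ape2 H, against 155, 162 and 149 in Ws-2 H, and 275, 272 and 255 in ape2 L, against 177, 176 and 192 in Ws-2 L. Its groups did not overlap, and the differences were 0.84 ± 0.08 in H and 0.53 ± 0.08 in L. AT2G22420, a class III peroxidase, was the dimmest named member, at 67.6 ± 10 in ape2 H, against 37.8 ± 3.07 in Ws-2 H, and 59.7 ± 4.55 in ape2 L, against 37.5 ± 4.37 in Ws-2 L.

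**Figure D3:**
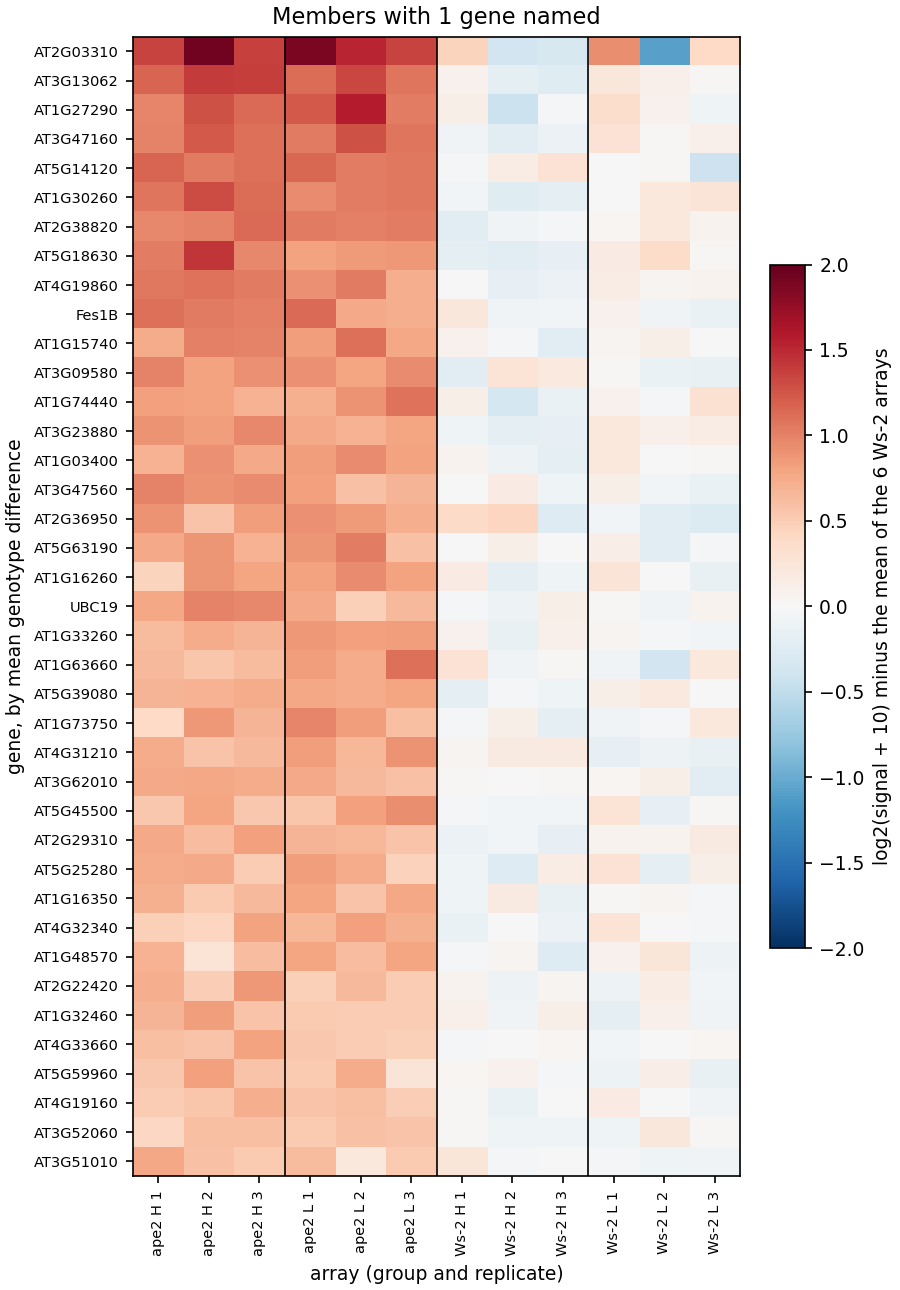
The 39 members with 1 gene named (rows, by mean genotype difference) on the 12 arrays (columns), coloured by log2(signal + 10) minus the mean of the 6 Ws-2 arrays. All 6 ape2 arrays lie above all 6 Ws-2 arrays for 38 of the 39 genes, AT3G51010 being the exception, and AT2G03310 varies most among the Ws-2 arrays.

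Members of signalling, of nucleic acid metabolism and of the transferases differed by 0.50 to 0.97. AT1G33260, a protein kinase, gave 66.8, 72.8 and 69.5 in ape2 H, against 42.6, 34.6 and 43.5 in Ws-2 H, and 80.8, 78 and 78.8 in ape2 L, against 41.8, 38.5 and 37.6 in Ws-2 L, without overlap, and differed by 0.67 ± 0.10 in H and 0.86 ± 0.10 in L. AT1G16260, a kinase of the wall-associated type, differed by 0.74 in H and 0.81 in L. AT1G15740 and AT5G45500, both with leucine-rich repeats, differed by 0.97 in H and 0.84 in L and by 0.67 in H and 0.72 in L. AT4G31210, a type IA DNA topoisomerase, gave 175, 154 and 162 in ape2 H, against 104, 115 and 114 in Ws-2 H, and 187, 164 and 195 in ape2 L, against 87.8, 93 and 89.6 in Ws-2 L. Its ape2 arrays all exceeded 153 and its Ws-2 arrays all stayed under 116, with differences of 0.52 ± 0.09 in H and 0.93 ± 0.09 in L. AT1G48570, a zinc finger protein, differed by 0.60 in H and 0.65 in L. AT5G39080 of the acyltransferase type differed by 0.80 in H and 0.67 in L, and AT3G52060, a glycosyltransferase-like gene, by 0.59 in H and 0.50 in L.

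For several of the named members with large differences or high signals, no role or only a protein domain is given here. AT1G30260 gave 349.5, 412 and 362 in ape2 H, against 154, 135 and 141 in Ws-2 H, and 318, 336 and 344 in ape2 L, against 162, 188 and 195 in Ws-2 L. Its lowest ape2 array was 318 and its highest Ws-2 array 195, with differences of 1.33 ± 0.09 in H and 0.84 ± 0.09 in L. AT1G27290 gave 165, 204 and 185 in ape2 H, against 86.2, 56.3 and 76.3 in Ws-2 H, and 199, 256 and 171 in ape2 L, against 104, 84.5 and 73.9 in Ws-2 L. The ape2 arrays began at 165 and the Ws-2 arrays ended at 104, and the differences were 1.24 ± 0.16 in H and 1.16 ± 0.16 in L. AT2G38820, with a domain of unknown function, gave 135, 139 and 154 in ape2 H, against 54.6, 61 and 63.1 in Ws-2 H, and 144, 141 and 141 in ape2 L, against 66.3, 76.7 and 68 in Ws-2 L. The ape2 arrays fell in a band from 135 to 154, clear of the Ws-2 arrays, and the differences were 1.13 ± 0.09 in H and 0.92 ± 0.09 in L. AT4G33660, a small cysteine-rich protein and the brightest named member, gave 535, 519 and 615 in ape2 H, against 342, 348 and 358 in Ws-2 H, and 509, 499.5 and 489 in ape2 L, against 336, 348 and 357 in Ws-2 L. All ape2 arrays were at or above 489 and all Ws-2 arrays under 359, with differences of 0.65 ± 0.07 in H and 0.51 ± 0.07 in L. AT4G32340, with tetratricopeptide repeats, gave 258, 248 and 327 in ape2 H, against 166, 183 and 168 in Ws-2 H, and 296, 328 and 305 in ape2 L, against 223, 182 and 178 in Ws-2 L. Its groups did not overlap, and the differences were 0.65 ± 0.11 in H and 0.65 ± 0.11 in L.

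The largest mean difference of a named member had wide replicates. AT2G03310 gave 90.3, 141 and 91.8 in ape2 H, against 43.7, 20.4 and 21.8 in Ws-2 H, and 136, 103 and 91.3 in ape2 L, against 65.2, 8.7 and 42 in Ws-2 L. The ape2 arrays lay above the Ws-2 arrays, but Ws-2 L 2 stood far below Ws-2 L 1, and the differences were 1.63 ± 0.46 in H and 1.5 ± 0.46 in L. It was the only one of the 39 named members that limma did not call in either condition. The other 38 named members were called in both. AT2G03310 left the group without Ws-2 L 2 or without Ws-2 H 1. Leaving out 1 array removed other named members too, and 23 of the 39 met the rule each time. AT1G27290, for example, left the group without any 1 of several arrays, such as ape2 L 1 or Ws-2 L 2. Of the 59 members with no gene named, the largest difference was that of 250007_at, which gave 134, 109 and 157 in ape2 H, against 30.7, 15.4 and 6.4 in Ws-2 H, and 83.8, 119 and 108 in ape2 L, against 27.6, 18.4 and 21.4 in Ws-2 L. Its Ws-2 signals were close to background, so that its mean difference of 2.14 was 2.62 at an offset of 1 and 1.54 at an offset of 32. Next came 259561_at, which gave 449, 704 and 432 in ape2 H, against 255, 93 and 176 in Ws-2 H, and 357, 624 and 433 in ape2 L, against 306, 161 and 189 in Ws-2 L. Replicates of each group were far apart, though the lowest ape2 array, at 357, was above the highest Ws-2 array, at 306, and the differences were 1.61 ± 0.39 in H and 1.09 ± 0.39 in L.

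The rule held the change between conditions near 0 as a mean over both genotypes. Within a genotype it had no limit of its own, but a larger change in 1 genotype had to go with an opposite one in the other. The counts given here follow in part from the rule and are descriptions. H minus L lay within 0.2 of 0 in each genotype for 56 members and beyond it in at least 1 genotype for 45, while 39.5% of the 9739 probe sets were beyond 0.2 in at least 1. H minus L ran from -0.35 to 0.33 in ape2, with a median of -0.02, and from -0.43 to 0.36 in Ws-2, with a median of -0.09. It was positive in ape2 and negative in Ws-2 for 28 members, and negative in ape2 and positive in Ws-2 for 17. It was negative in both genotypes for 37 members and positive in both for 19. Shares of these signs over the 9739 were not counted. By limma 0 members were called in ape2, where 8 had an unadjusted p under 0.05 and 4.03% of all probe sets were called, and 1 was called in Ws-2, where 20 had an unadjusted p under 0.05, against 2.95% of all probe sets. The 1 was 249694_at, chosen after its values were seen, with signals of 524, 522 and 521 in ape2 H, against 244, 247 and 202 in Ws-2 H, and 432, 453 and 465 in ape2 L, against 302, 322 and 315 in Ws-2 L. All 3 ape2 H arrays were above all 3 ape2 L arrays, and all 3 Ws-2 H arrays below all 3 Ws-2 L arrays. Without ape2 L 1 the count in ape2 was 1, and the count in Ws-2 was 3 without Ws-2 L 1 and 2 without Ws-2 H 1 or without Ws-2 H 3.

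Whether the genotype difference itself differed between H and L was tested with the interaction, H minus L in ape2 less H minus L in Ws-2. The rule did not use this contrast, although its minimum of 0.5 in both conditions limits it for a given mean genotype difference. The interaction was positive, a larger difference in H, for 63 members and negative for 38, with a median of 0.08 and a range from -0.54 to 0.66, while 49.9% of the 9739 probe sets had a positive one. In limma 0 of the 101 were called, with 15 at an unadjusted p under 0.05, and 0.0186% of all probe sets, 3 in number, were called. The smallest adjusted p was that of 249694_at, at 0.64 ± 0.11 (limma adjusted p = 0.0644), and that adjusted p was 0.0484 with array weights. For AT5G18630, where H minus L was 0.29 in ape2 and -0.37 in Ws-2, the interaction was 0.66 ± 0.17 (limma adjusted p = 0.28). AT1G30260 had H minus L of 0.16 in ape2 and -0.32 in Ws-2 and an interaction of 0.49 ± 0.12 (limma adjusted p = 0.282). For AT3G23880 the interaction was 0.44 ± 0.12 (limma adjusted p = 0.282), for AT3G13062 0.38 ± 0.15 (limma adjusted p = 0.599) and for AT4G19860 0.35 ± 0.12 (limma adjusted p = 0.486). In the other direction, AT1G63660 of GMP synthesis stood at -0.43 ± 0.20 (limma adjusted p = 0.635), with H minus L of -0.28 in ape2 and 0.15 in Ws-2. AT2G36950 stood at -0.42 ± 0.22 (limma adjusted p = 0.698), AT4G31210 at -0.42 ± 0.12 (limma adjusted p = 0.38), AT5G14120 at -0.24 ± 0.15 (limma adjusted p = 0.755) and AT1G33260 at -0.19 ± 0.14 (limma adjusted p = 0.824). These values do not show that the differences were equal in H and L.

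**Figure D4:**
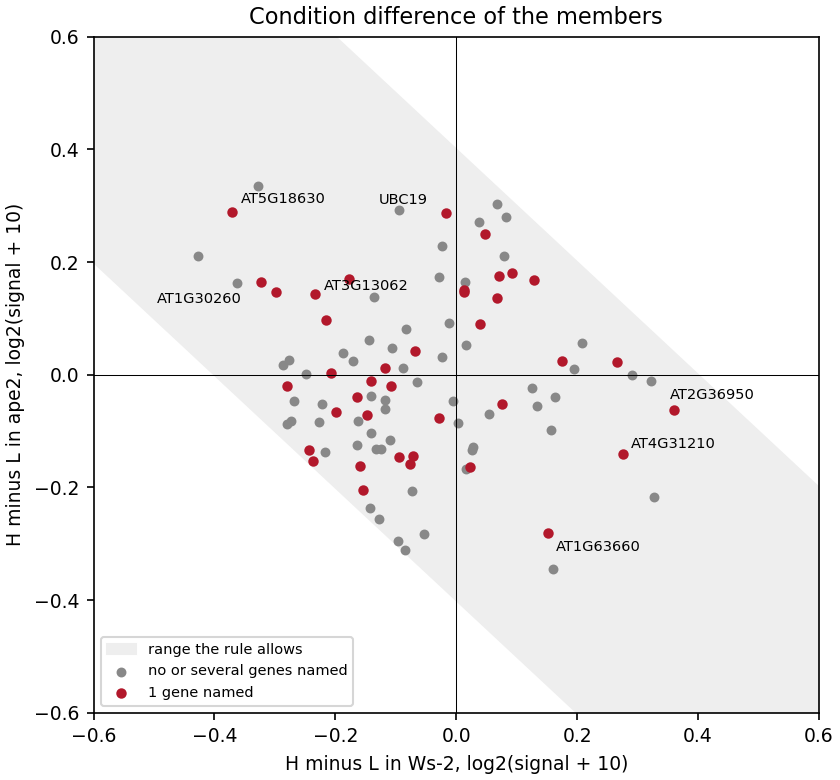
H minus L of the 101 members in Ws-2 (x axis) and in ape2 (y axis), both in log2(signal + 10), with the range the rule allows shaded. AT5G18630, AT1G30260 and AT3G13062 lie at the upper left, higher in H in ape2 and lower in H in Ws-2, and AT4G31210, AT1G63660 and AT2G36950 at the lower right.

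The arrays of a group were not equal for the members. Relative to the mean of the 6 Ws-2 arrays, the median member stood at 0.73, 0.80 and 0.71 on the ape2 H arrays, against 0.02, -0.10 and -0.05 on the Ws-2 H arrays. It stood at 0.78, 0.81 and 0.75 on the ape2 L arrays, against 0.11, -0.003 and -0.01 on the Ws-2 L arrays. The highest median of each ape2 group was on the array with replicate number 2, and the highest of each Ws-2 group on that with number 1. For 35 members both ape2 H 2 and ape2 L 2 were the highest of their group, and for 28 both were the lowest, which is 34.7% and 27.7% of the members, against 17.3% and 19.9% of the 9739 probe sets. The members' pooled SD within groups had a median of 0.15 on the log2 scale, against 0.13 over the 9739. For 4 members the mean difference moved by over 1.5 times without a single array. Without ape2 L 2 it was 0.48 for 249346_at, 0.46 for 250445_at and 0.36 for 266071_at, against 0.73, 0.73 and 0.63 with all arrays. Without ape2 H 2 it was 0.48 for 250445_at, 0.40 for 266071_at and 0.40 for 254869_at, which had 0.60 with all arrays. Without Ws-2 H 2 it was 0.44 for 250445_at. None of the 4 has a single gene named, and they were singled out once their values were known. In each the ape2 and Ws-2 arrays overlapped in both conditions.

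**Figure D5:**
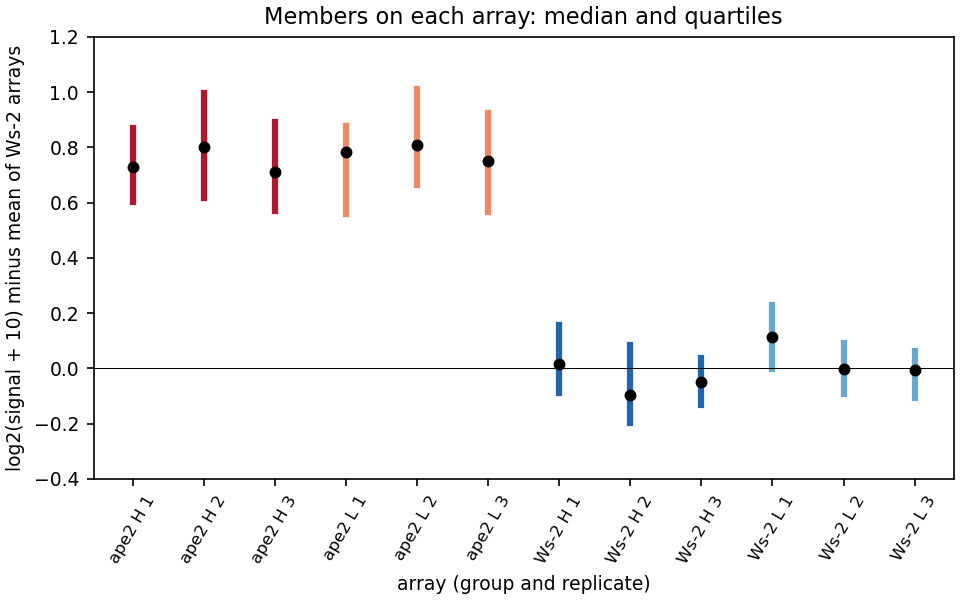
The 101 members on each of the 12 arrays, as the median (point) and the quartiles (bar) of log2(signal + 10) minus the mean of the 6 Ws-2 arrays. Medians lie between 0.71 and 0.81 on the ape2 arrays and between -0.10 and 0.11 on the Ws-2 arrays.

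The members were set beside 18 gene lists for sugar, starch, light, redox, stress and related pathways. These lists were chosen with earlier results of these data known, so their counts are descriptions and no independent support. Of the 231 genes on these lists 47 have a probe set named here and 46 were tested. None of the 46 is a member. Over all lists 9 genes were called higher and 8 lower in ape2 in H, and 9 higher and 10 lower in L. Of 5 flavonoid genes measured, 1 was called higher and 3 lower in each condition, and of 2 genes of starch synthesis 1 was called lower in H and 2 in L. Of 3 chlorophyll genes 1 was called higher in H and 2 in L, and of 2 lipid transfer genes 1 was called higher in each, with 0 lower. Of 2 genes of sucrose synthesis 1 was called higher and 1 lower in H, and 1 lower in L. Of 5 redox genes 1 was called lower in L and 0 in H. The single measured genes of the clock, jasmonate and light signalling lists were called lower in both. Of the 13 measured genes known to be induced when sugar is short, 5 were called higher and 0 lower in ape2 in H, and 5 higher and 0 lower in L, while 4.96% of all probe sets were called higher and 5.54% lower in H, and 5.03% higher and 4.75% lower in L. Their median difference was 0.31 in H and 0.35 in L, against -0.01 over the 9739 in each. They stood outside the group for different parts of the rule. AT4G05070 was at 1.0 ± 0.11 (adjusted p = 2.8e-05) in H and 0.84 ± 0.11 (adjusted p = 0.000221) in L by limma, but had a mean H minus L of -0.72. AILP1 (AT5G19140), at 1.06 ± 0.20 (adjusted p = 0.0053) and 0.62 ± 0.20 (adjusted p = 0.0793) by limma, had one of -0.27, and AT5G19120, a dim gene, one of -1.12. AT3G26510 had a mean H minus L of 0.31 and a genotype difference in L of 0.42. AT1G18460, a lipase-like gene, was nearly steady at -0.04, but its differences, 0.42 ± 0.10 (adjusted p = 0.0111) in H and 0.35 ± 0.10 (adjusted p = 0.0361) in L by limma, stayed under 0.5. AT3G15450 was at 0.31 ± 0.12 (adjusted p = 0.121) in H and 0.40 ± 0.12 (adjusted p = 0.0485) in L by limma. The other 7 measured genes of the list were not called in either condition.

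The rule also separates the members from the rest of the genes that differed between the genotypes. Of the 9739 probe sets, 252 were at least 0.5 higher in ape2 in both conditions. H minus L, averaged over the genotypes, was within 0.2 of 0 for 105 of the 252, below -0.2 for 136 and above 0.2 for 11. The steady share was thus 41.7%, against 81.4% of all 9739 probe sets. In the mirrored direction, 166 probe sets were at least 0.5 lower in ape2 in both conditions, and 86 of them, or 51.8%, were steady. These shares are descriptions, since the same arrays gave both differences.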

How the data were processed

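The authors deposited a linear signal intensity for every probe set on each array, made with MAS5 per the submitters' processing notes. Its version is not given in the sources used here. Trimmed means near 100 on every array show that the values had been scaled, so a change shared by most transcripts would not be seen, and MAS5 makes dim signals noisy. A probe set shared by related transcripts gives 1 value for them together.

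Deposited signals were used as log2(signal + 10), so a difference understates the change of a dim gene. The model used 4 group means over all 12 arrays in limma 3.58.1 (R 4.3.3), with a robust prior variance that follows intensity, on the 16095 probe sets that reached a signal of 20 on 3 arrays or more. Tests were two-sided and p-values were adjusted over all probe sets tested by the Benjamini-Hochberg method. Errors beside a difference are the model's standard errors. The fit was checked on simulated data. The labels do not say whether replicates are separate plants, so the p-values reflect the spread between samples alone, which may be technical. Precision is limited by the number of arrays.

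Genes were named from the platform annotation, which names 1 gene for 13513 probe sets, several for 503 and none for 8730 non-control ones, with symbols from RefSeq (TAIR10.1). A probe set with several was given no name. The members and lists were chosen with earlier results of these data known. Array values are given for named members with the 10 largest mean differences, the 5 highest mean signals, the 5 largest interactions each way or a gene symbol, and for the 2 largest differences without a named gene. Members given beyond these were chosen after their values were seen. Deviations of same-numbered arrays correlated by 0.14 to 0.51 between ape2 H and ape2 L in all 3 pairs, by 0.03 to 0.17 between Ws-2 H and Ws-2 L, and by -0.43 to 0.14 between genotypes. The ranges overlap at their ends, so these values do not settle whether the numbers pair arrays, and the labels state no pairing. Promoter and protein sequences were not used here. Alternatives were other offsets, filters, scalings, priors and weights, the replicate number as a block, and leaving out each array.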

Additional observations from a re-analysis of the deposited data

How the results depend on the processing

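All 101 members stayed higher in ape2, in the mean over both conditions, in every alternative fit and without each array. This sign follows largely from the choice of members on the same arrays, and some of these fits leave the difference unchanged. The rule gave 108 members at an offset of 1 (95 of them shared with the 101), 74 at an offset of 32 (64 shared), 102 after rescaling (99 shared) and 101 after quantile normalization (96 shared). It gave 68 with a mean signal of 100 or more and 25 with a difference of 0.75 in each condition. With the mean H minus L held within 0.1 of 0, an alternative chosen after seeing the data, it gave 50. Leaving out each array gave 84 to 117 members, and 46 members, 23 of them with 1 gene named, met the rule each time. The count of members called in limma ran from 82 to 92 in H and from 79 to 90 in L without an array. It was 0 for the interaction without each array, and 1 with array weights (249694_at, adjusted p = 0.0484), while the smallest adjusted p of any member ran from 0.054 to 0.255 in the other settings. For H minus L it was 0 or 1 in ape2, with 1 without ape2 L 1, and 1 to 3 in Ws-2, with 3 without Ws-2 L 1, 2 without Ws-2 H 1 or Ws-2 H 3, 2 with a filter at 50 and 3 with array weights. The causes were not tested. With the replicate number as a block, 88 members were called in H, 84 in L, 1 for H minus L in Ws-2, 0 in ape2 and 0 for the interaction. A block within ape2 alone, chosen after seeing the data because its same-numbered arrays had the highest correlation of deviations, gave 0 for H minus L in ape2 and 0 for the interaction. For the 21 probe sets named by rule, 426 of 441 alternative values of the mean difference lay within the pooled SD of single arrays. The other 15 came from an offset of 1 or 32. Most of these outcomes were fixed in advance, so the count is a description only. Leaving out 1 array cannot shift the mean difference by a whole SD, and the filters, the constant prior and the replicate block leave it unchanged. The planned description of promoters and proteins was not run.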

Other observations

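The 39 named members were spread over the genome. By locus code, 12 lie on chromosome 1, 5 on chromosome 2, 10 on chromosome 3, 5 on chromosome 4 and 7 on chromosome 5. These are 30.8%, 12.8%, 25.6%, 12.8% and 17.9% of the named members, against 25.7%, 14.9%, 20.5%, 14.8% and 24.2% of all genes named by a probe set with a mean signal of 50 or more. The closest named members in the order of RefSeq protein-coding genes were AT1G16260 of the wall-associated kinases and AT1G16350 of the IMP dehydrogenases, 9 genes apart, followed by AT3G47160 and AT3G47560, 34 genes apart.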
